A study of Mus musculus with 20 samples.

Results

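In cultured mouse germline stem cells, 1529 genes with little or no RNA carried the histone mark H3K4me3 at their start and did not reach the limit for H3K27me3 in both of 2 control libraries. For 428 of them 1 of the 2 control libraries did reach it. These silent genes with H3K4me3 only were 13.7% of the 11137 silent genes in the control cells, and 1529 of the 25067 genes that have both a chromatin and an RNA value. They were chosen on the control libraries alone, on the scale log2(RPM + 0.5), where RPM is a read count scaled to a fixed number of mapped reads. H3K4me3 in the gene window had to exceed the same-numbered input by at least 1.5 in both replicates. H3K27me3 had to exceed its input by under 1 in at least 1 replicate, and the mean log2 RPM of RNA had to lie below 0. RNA was not divided by gene length, so a short gene passes the last limit more easily than a long one. The sizes of these control values are therefore a description of how the genes were chosen and not a finding.

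Germline stem cells are the cultured counterpart of the stem cells of the testis, and these were grown on fibroblast feeder cells. Knockout cells (Kmt2bFC/FC) carried floxed Kmt2b alleles with the ubiquitous, tamoxifen-inducible Rosa26-CreERT2 and were given 4-OHT at 1 μM. Control cells (Kmt2bF/F) carried the same alleles and CreERT2 and were given ethanol, so gene loss and 4-OHT cannot be told apart, and both groups were harvested on day 6. For 2 marks (H3K4me3 and H3K27me3), for input DNA and for RNA there were 2 knockout and 2 control libraries each, from duplicate cell lines. H3K9me3 came from 2 libraries of control genotype and 2 separate inputs, made with another kit, whose treatment and harvest day are not given in the sources used here. P-values thus rest on 2 lines per group, and the test used (limma) draws the spread at each gene partly from other genes of like level. They do not measure the spread between the lines at a single gene alone.

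H3K4me3 is laid down at gene starts by the SET1 and MLL family of methyltransferases, to which Kmt2b belongs. Many starts rich in CpG carry the mark even where little RNA is made, and in stem cells a silent start often carries it together with H3K27me3, the mark of the Polycomb repressive complex, a state called bivalent. A gene window can also hold the mark of a neighbour that starts close by on the opposite strand.

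Knockout replicate 1 of H3K4me3 was shallow, with 3830045 mapped reads and 20.7% of them in gene windows, against 10360152 to 18035122 reads and 25.6% to 29% in the other 3 H3K4me3 libraries. A single read was worth 0.261 RPM there, and 17 of the 1529 genes had no read. Kmt2b itself, listed as Wbp7, gave 131 and 185 RPM of RNA in knockout cells and 142 and 150 RPM in control cells, which does not check the deletion because reads are summed over the whole gene. All 19 germ cell markers were expressed in control, with a summed RNA of 4117 and 4553 RPM in knockout and 4370 and 4325 RPM in control. The 30 feeder markers summed to 701 and 875 RPM in knockout and 630 and 669 RPM in control.

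Sequences from 250 bases upstream of the annotated start are given for 4 of the genes, from RefSeq in mm10, with CpG in capitals. Gpr85 and Serpinb8 are shown because they were among the 8 largest called decreases of H3K4me3 in the knockout, and Hist4h4 and Gm14261 because they were among the 8 with the highest control H3K4me3 and no called decrease.
Gpr85, chr6:13839943-13840192, minus strand: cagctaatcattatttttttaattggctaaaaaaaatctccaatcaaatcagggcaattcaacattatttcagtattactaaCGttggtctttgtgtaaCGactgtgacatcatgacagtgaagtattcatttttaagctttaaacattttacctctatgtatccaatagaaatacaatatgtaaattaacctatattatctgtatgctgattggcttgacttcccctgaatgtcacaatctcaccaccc
Serpinb8, chr1:107589756-107590005, plus strand: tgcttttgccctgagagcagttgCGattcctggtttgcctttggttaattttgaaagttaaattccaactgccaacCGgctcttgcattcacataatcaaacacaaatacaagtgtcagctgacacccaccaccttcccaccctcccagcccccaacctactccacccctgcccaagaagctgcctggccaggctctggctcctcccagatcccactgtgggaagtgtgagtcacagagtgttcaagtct
Hist4h4, chr6:136804432-136804681, minus strand: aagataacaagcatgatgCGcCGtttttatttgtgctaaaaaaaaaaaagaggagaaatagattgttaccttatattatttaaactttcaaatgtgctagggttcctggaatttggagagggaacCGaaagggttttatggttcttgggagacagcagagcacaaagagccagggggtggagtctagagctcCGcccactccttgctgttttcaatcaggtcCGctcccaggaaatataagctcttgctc
Gm14261, chr2:168765893-168766142, plus strand: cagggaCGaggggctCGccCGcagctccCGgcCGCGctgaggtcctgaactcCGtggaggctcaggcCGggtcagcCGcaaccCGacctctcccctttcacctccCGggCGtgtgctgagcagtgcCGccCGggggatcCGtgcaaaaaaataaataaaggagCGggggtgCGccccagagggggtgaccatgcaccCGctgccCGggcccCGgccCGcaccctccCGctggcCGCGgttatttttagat
These stretches hold 2 CpG in Gpr85, 2 in Serpinb8, 5 in Hist4h4 and 24 in Gm14261. Of the other 6 largest decreases, 6330409D20Rik and Gm15755 also had an entry, with 7 CpG each, so that the CpG counts of the decreases and of the kept marks overlap. The RefSeq promoter table matched 677 of the 1529 genes (44.3%) within 50 bases, too few for a comparison of CpG content with other genes, so none is given.

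Protein-coding genes made up 837 of the 1529 (54.7%) and long noncoding RNAs 362 (23.7%), by RefSeq, and 310 (20.3%) had no match there. Among the 11051 expressed genes with H3K4me3 only, 95.9% were protein-coding and 2.31% long noncoding, and over all genes 79.3% and 7.06%. Genes named only as Riken clones (334) or by a Gm number (415) were frequent.

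Many of the silent genes started beside an expressed one. For 392 of the 1529 (25.6%), another gene with a control RNA mean of at least 0 started within 1000 bases, and 386 of these pairs lay on opposite strands. The share was 18.6% of the expressed genes with H3K4me3 only, 3.46% of the 1243 silent bivalent genes and 0.452% of the 7962 silent genes with neither mark. A further 165 started inside the body of an expressed gene without such a start nearby, and 972 did neither. Pairs on opposite strands shared reads: over the 483 pairs of genes with starts at most 100 bases apart, the control input values correlated at 0.973 and 0.975, against 0.236 and 0.417 over the 288 pairs more than 1000 and up to 2000 bases apart. The values of a silent gene in such a pair are thus not its own alone, and members with and without an expressed start within 1000 bases are described separately here.

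In the knockout libraries, which were not used to choose the genes, 1164 of the 1529 (76.1%) still met the H3K4me3 limit. Of all 1529, 866 had H3K4me3 only, 298 both marks, 110 H3K27me3 only and 255 neither. The silent bivalent genes met the H3K4me3 limit in 53.8% of cases in the knockout, and the expressed genes with H3K4me3 only in 96.8%. Of the members without an expressed start nearby, 68.9% met it, and of those with one 97.2%. The RNA mean reached 0 or more in 204 of the 1529 (13.3%), against 8.45% of the silent bivalent genes and 2.22% of the silent genes with neither mark. In control, 260 of the 1529 already had an RNA mean from -0.5 to 0. All 3 limits were met in the knockout by 730 genes. The chromatin limits were read in both knockout replicates, the shallow replicate 1 included. Genes chosen by a limit in control can also cross it in other libraries through that choice alone.

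Median H3K4me3 of the 1529 genes was 6.01 and 8.75 RPM in the 2 knockout libraries and 11.9 and 14 RPM in the 2 control libraries. Without an expressed start nearby it was 4.44 and 6.51 RPM in knockout and 9.56 and 11.9 RPM in control, with no overlap between the groups. With one it was 13.8 and 18.9 RPM in knockout and 18.1 and 20.9 RPM in control, so that the groups overlapped. Median input over the same 1529 windows was 0.591 and 0.562 RPM in knockout and 0.547 and 0.625 RPM in control. By limma with Benjamini-Hochberg adjustment over 15624 windows, the inputs gave no call in either direction, with 396 windows lower and 345 higher at an unadjusted p under 0.05.

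**Figure D1:**
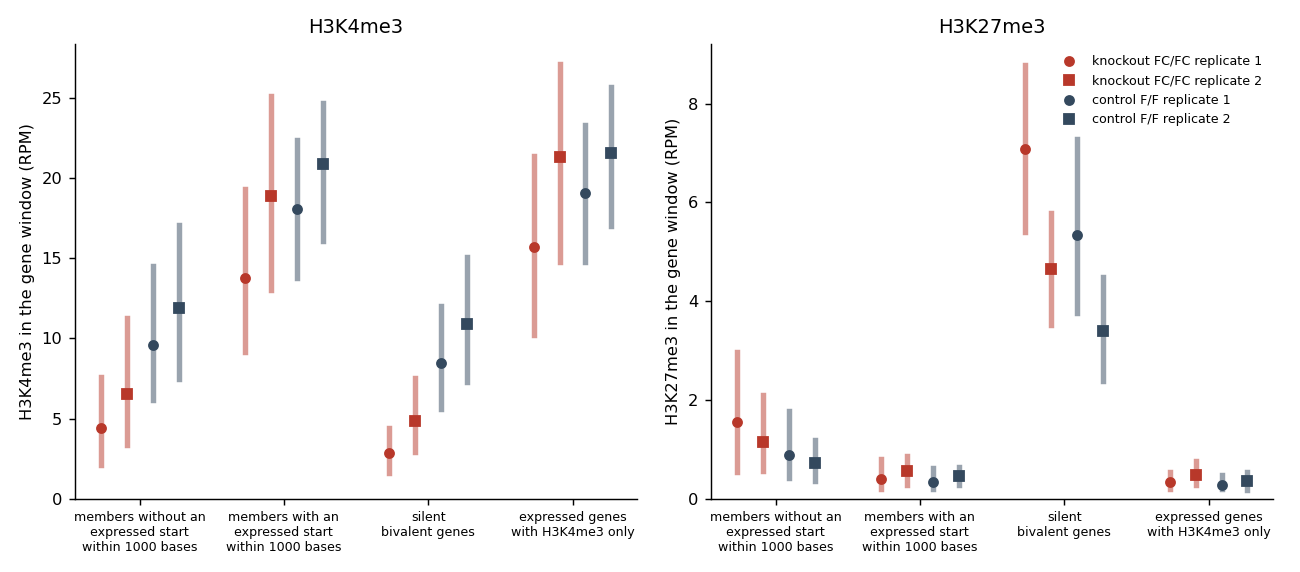
Median (points) and quartiles (bars) of H3K4me3 and H3K27me3 in RPM over each class of gene, with the 2 knockout libraries left of the 2 control libraries. Median H3K4me3 of the members without an expressed start nearby was 4.44 and 6.51 RPM in knockout, under the control values of 9.56 and 11.9 RPM.

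H3K4me3 was called lower in the knockout at 273 of the 1529 genes and higher at none, where 9.9% of all 15624 windows tested were called lower and 0.0512% higher (limma, adjusted p under 0.05). At an unadjusted p under 0.05, 734 were lower and 1 higher, and limma voom on the reads behind the values called 514 lower and 5 higher. With each library centred on its median, 270 were called lower and 20 higher, against 642 higher over all windows. The median log2 change was -0.82, against -0.26 over all windows, -0.12 over the expressed genes with H3K4me3 only and -1.37 over the silent bivalent genes. The groups did not overlap at 1155 genes, or 75.5%, with 51.8% over all windows. The control libraries that chose the genes also enter this comparison, and genes chosen for a high control value lean towards a decrease. Nothing is therefore read from the distance of these counts from the share over all windows.

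The call depended on single libraries. Leaving out knockout replicate 1 left 178 genes called lower and a median of -0.54, and 110 of the 178 were among the 273. Leaving out knockout replicate 2 gave 1035, and leaving out either control library gave 0, over the silent genes and over all windows alike.

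Among the members without an expressed start nearby, 256 of 1137 (22.5%) were called lower, with a median of -1.0. Among those with one, 17 of 392 (4.34%) were called lower, with a median of -0.20, which turned to 0.02 without knockout replicate 1 and to 0.09 when every library was centred on its median. The same omission gave -0.70 for the members without an expressed start nearby, and the same centring -0.71. Of the 753 protein-coding genes among the 1137, 200 were called lower, with a median of -1.04. The 362 long noncoding RNAs, with and without such a neighbour, gave 45 calls and a median of -0.58. These differences between subsets of genes were not tested, since genes are not replicates.

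The change varied with the distance to the nearest start of an expressed gene. The median log2 change was -0.18 over 193 genes closer than 250 bases, -0.24 over 91 genes from 250 to 500 bases and -0.23 over 108 genes from 500 to 1000 bases. It was -0.52 over 50 genes from 1000 to 2000 bases, -0.79 over 58 genes from 2000 to 5000 bases, -0.93 over 242 genes from 5000 to 20000 bases and -1.03 over 787 genes farther away. The share called lower was 3.63% in the closest class and 25.2% in the farthest. Mean control H3K4me3 moved with distance as well, from a median of 4.31 log2 RPM in the closest class to 3.37 in the farthest. Changes are therefore also given by range of control level, and the part of level in the trend was not tested.

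**Figure D2:**
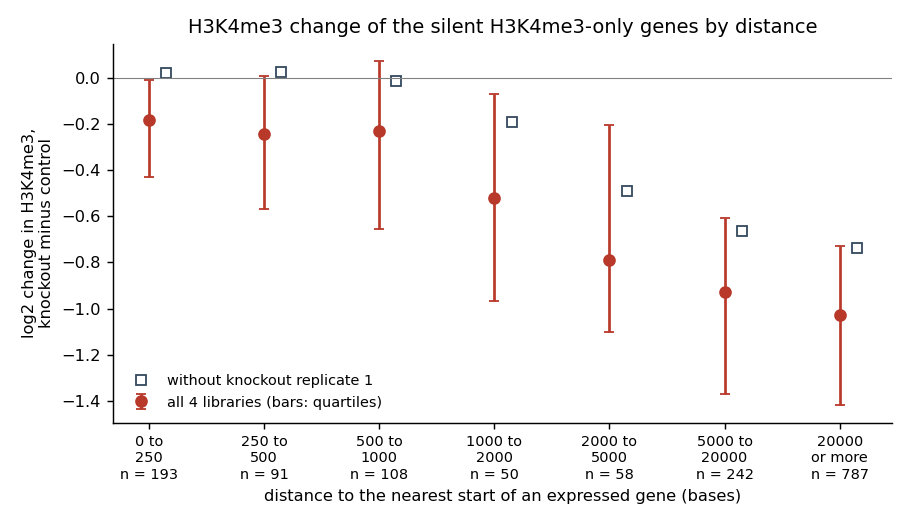
Median log2 change in H3K4me3 (knockout minus control) of the silent H3K4me3-only genes by distance in bases to the nearest start of an expressed gene, with quartiles as bars and, as open squares, the medians without knockout replicate 1. Medians lie between -0.24 and -0.18 within 1000 bases and at -1.03 beyond 20000 bases.

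Within the ranges of control H3K4me3 given here, the members without an expressed start nearby had lower median changes than those with one. Level varies within a range, and the same control values enter the change, so no cause is read from this. With a mean control level from 4 to 5 log2 RPM, the median log2 change was -0.72 over 263 members without such a neighbour and -0.16 over 272 with one. At the same level it was -1.17 over 157 silent bivalent genes and -0.07 over 7999 expressed genes with H3K4me3 only. Without knockout replicate 1 these were -0.37 and 0.07 for the members, -0.72 for the silent bivalent genes and 0.13 for the expressed genes. From 3 to 4 log2 RPM the median was -0.94 over 496 members without and -0.34 over 92 members with such a neighbour. In both ranges, and with or without that library, the order of the medians put the silent bivalent genes lowest and the members without an expressed start nearby next.

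**Figure D3:**
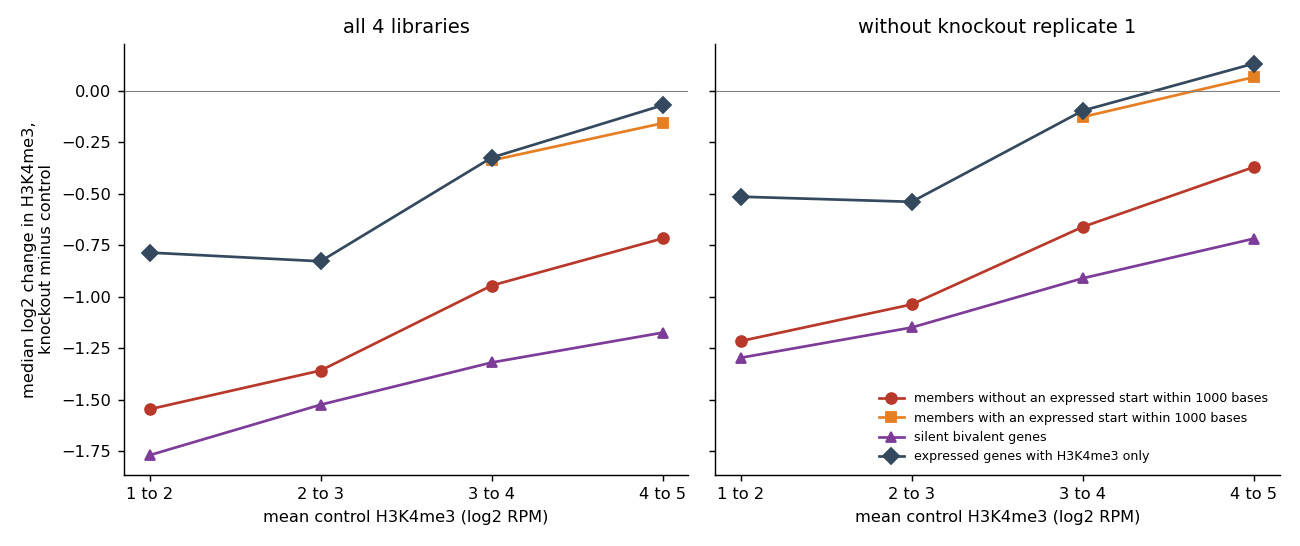
Median log2 change in H3K4me3 (knockout minus control) against mean control H3K4me3 in log2 RPM, with all 4 libraries and without knockout replicate 1, leaving out points with under 20 genes. Members without an expressed start within 1000 bases lie between the silent bivalent genes and the expressed genes at each level shown.

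The largest called decreases lay at genes of varied roles and moderate control levels. Gpr85, an orphan G protein-coupled receptor gene of the brain, had 0.261 and 1.57 RPM of H3K4me3 in knockout and 6.66 and 5.88 RPM in control. Both knockout libraries lay under both control libraries, as at each of the 8 genes with the largest decreases (Gpr85 log2 change -3.29, SE 0.70, limma adjusted p = 0.00214). Atp6ap1l, related to an accessory subunit of the vacuolar proton pump, had 0 and 1.87 RPM in knockout and 4.83 and 7.1 RPM in control (-3.14, SE 0.70, limma adjusted p = 0.00321). Mtnr1a, a melatonin receptor gene, had 0 and 1.15 RPM in knockout and 3.57 and 4.6 RPM in control (-2.97, SE 0.75, limma adjusted p = 0.00762). The serine protease inhibitor gene Serpinb8 had 0 and 1.93 RPM in knockout and 4.54 and 6.15 RPM in control.

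The membrane protein gene Tmem140 had 0.261 and 4.1 RPM in knockout and 7.34 and 7.87 RPM in control, so that its knockout libraries were far apart. 6330409D20Rik, which starts inside the expressed gene Sh2d3c, had 0.261 and 2.83 RPM in knockout and 6.37 and 7.15 RPM in control. Gm15755 and the serine protease gene Prss38 start 196 bases apart on chromosome 11 and count as 1 observation. Prss38 had 0.261 and 1.93 RPM in knockout and 5.5 and 5.6 RPM in control.

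All 8 sizes lean on knockout replicate 1, which held 0 or 1 read at each, with a gene without reads listed at 0.9 of a read. Without that library the log2 change was -2.0 at Gpr85, -1.82 at Mtnr1a, -1.65 at Atp6ap1l and -1.52 at Prss38, all still called by limma. It was -1.45 at Serpinb8 and at Gm15755, -1.25 at 6330409D20Rik and -0.89 at Tmem140, which were no longer called (limma adjusted p from 0.0536 to 0.188). All 8 lost the call without either control library. RNA of these genes stayed low in both groups, for example 0.131 and 0.375 RPM in knockout and 0.156 and 0.18 RPM in control for Gpr85, and none of the 6 that passed the filter on low RNA was called.

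**Figure D4:**
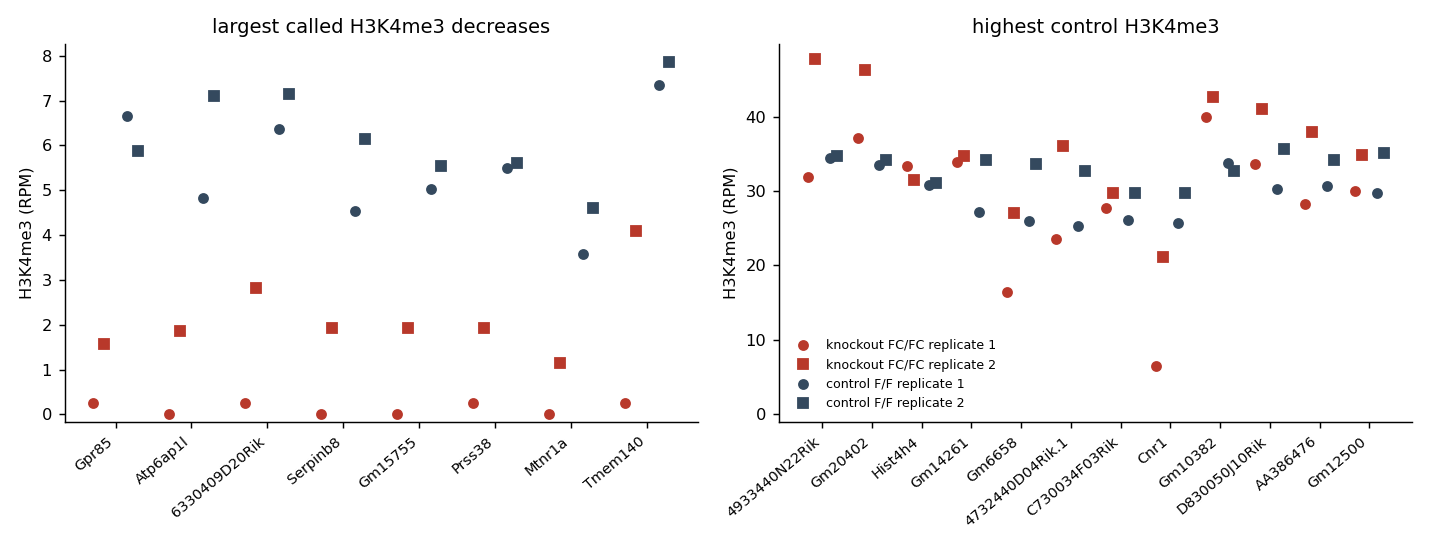
H3K4me3 in RPM in each library, knockout left of control, at the 8 largest called decreases and at the 12 genes with the highest control H3K4me3 without (first 8) and with (last 4) an expressed start within 1000 bases. Among the 12, Cnr1 has 6.53 and 21.2 RPM in knockout, under its control values of 25.7 and 29.7 RPM, and the others show no called change.

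The genes with the highest control H3K4me3 mostly lay in or near expressed genes and did not pass the test. Of the 8 highest without an expressed start within 1000 bases, 5 started inside an expressed gene: 4933440N22Rik in Hnrnpf, Gm20402 in Foxo1, Gm14261 in Sall4, Gm6658 in Chd9 and 4732440D04Rik.1 in Rb1cc1. Gm14261, whose start lies 1800 bases from that of Sall4, a transcription factor gene of germline stem cells, had 33.9 and 34.7 RPM in knockout and 27.2 and 34.2 RPM in control. The histone H4 gene Hist4h4 had 33.4 and 31.5 RPM in knockout and 30.8 and 31.1 RPM in control (log2 change 0.07, SE 0.20, limma adjusted p = 0.909). The cannabinoid receptor gene Cnr1, 125598 bases from any expressed start, was the only one of the 8 called lower, with 6.53 and 21.2 RPM in knockout and 25.7 and 29.7 RPM in control. Its log2 change was -1.23 (SE 0.31, limma adjusted p = 0.00676), and without knockout replicate 1 it was -0.38 and not called (limma adjusted p = 0.203).

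Among the 4 highest with an expressed start nearby were AA386476 beside the chromatin reader gene Ing2 and Gm12500 beside the AMP deaminase gene Ampd2. Both started within the partner's body on the opposite strand, 165 bases from the start of Ing2 and 675 bases from that of Ampd2. AA386476 had 28.2 and 37.9 RPM in knockout and 30.7 and 34.2 RPM in control, and Gm12500 30 and 34.9 RPM in knockout and 29.7 and 35.1 RPM in control. The groups overlapped at both, and none of the 4 was called.

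H3K27me3 was near input in control by construction, with a median of 0.684 and 0.641 RPM over the 1529 genes. In the knockout libraries the median was 1.08 and 0.949 RPM, both above both control values. In control, 376 of the genes met the H3K27me3 limit in replicate 1 only, 52 in replicate 2 only and 1101 in neither, so for 428 genes the control libraries disagree on the absence of the mark. Some lay far over the limit in 1 of them: Sstr2 had 5.61 RPM in control replicate 1, against an input of 0.729 RPM, and 1.65 RPM in control replicate 2. Among genes named by list below, those that met the limit in control replicate 1 only include Ccna1, Fgf18, Wnt16, Cacna1g, Htr7, Ifit2, H2-Ab1 and Twist2. Cnr1 met the limit in control replicate 2 only. In the knockout 408 (26.7%) met it in both replicates. Of the members without an expressed start nearby, 32.5% did, of those with one 9.95%, and of the expressed genes with H3K4me3 only 4.79%.

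A mean of at least 1 RPM was reached by 670 of the 1529 genes, 507 of them also on their control mean. The others passed only through the knockout libraries and had to differ. H3K27me3 was called higher at 13 genes, where 0.791% of all 4807 windows tested were called higher. Of the 13, 11 had a control mean under 1 RPM, so no support is drawn from their calls. With no filter 16 genes were called, 12 of them among the 13. None was called lower, with 0 of the 670 lower at an unadjusted p under 0.05 and none by limma voom. The median log2 change of the 670 was 0.85, against 0.45 over all windows tested and 0.89 over the expressed genes with H3K4me3 only. Centring each library on its median moved these to 0.26 over the 670 and -0.13 over all windows. No gene was called without either knockout library, 1 was without control replicate 2 and 47 were without control replicate 1. The rule chose low H3K27me3 in the control libraries, so a rise is the direction it favours.

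The neural transcription factor gene Sox11 had 2.43 and 1.61 RPM of H3K27me3 in knockout and 0.137 and 0.183 RPM in control, the largest fitted rise among the calls (log2 change 3.65). Its H3K4me3 was 13.6 and 19 RPM in knockout and 22.6 and 26.7 RPM in control and was not called. Peg12, an imprinted gene expressed from the paternal allele, had 2.63 and 2.56 RPM of H3K27me3 in knockout and 0.753 and 0.183 RPM in control. The groups were apart at both genes, but both passed the filter only through the knockout libraries, so no support is drawn from this. Of the 6 genes described here, A830073O21Rik alone reached 1 RPM on its control mean, and the other 5 passed the filter only through the knockout libraries.

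Kcna3, a voltage-gated potassium channel gene, had 2.7 and 3.32 RPM of H3K27me3 in knockout and 1.03 and 0.275 RPM in control, and its H3K4me3 was called lower, with 10.2 and 16.8 RPM in knockout and 25 and 27.8 RPM in control. Fkbp1b, whose product binds ryanodine receptors, had 3.11 and 2.85 RPM of H3K27me3 in knockout and 0.479 and 0.641 RPM in control. At Ccdc110, a coiled-coil protein gene, H3K27me3 was 3.92 and 2.75 RPM in knockout and 1.03 and 0.275 RPM in control. A830073O21Rik had 3.98 and 3.32 RPM in knockout and 2.19 and 0.183 RPM in control, so that its control libraries differed from each other by more than the groups did at their nearest. Of the 13 genes called higher in H3K27me3, 5 were also called lower in H3K4me3, where 273 of all 1529 members (17.85%) were. They were Kcna3, Fkbp1b, Ccdc110, the amino acid transporter gene Slc6a15 and the relaxin gene Rln1. The overlap was not tested.

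RNA stayed low at most of these genes in the knockout. The median was 0.306 and 0.35 RPM in knockout and 0.26 and 0.27 RPM in control. No read fell on 123 of the genes in either control library, and on 80 in any of the 4. A mean log2 RPM of at least -3 was reached by 1021, and 978 of them reached it on their control mean. RNA was called higher at 26, or 2.55%, where 2.89% of all 17496 genes tested were called higher, so the share was near that over all genes. None was called lower, where 0.343% of all genes were, with 15 lower and 195 higher at an unadjusted p under 0.05 and 0 lower and 19 higher by limma voom. Of the 26, 25 had no expressed start within 1000 bases, or 3.22% of the 777 such members tested, again near the share over all genes. Among the 26, 4 were also called lower in H3K4me3, namely Ccdc105, Sstr2, Tdgf1 and 4930403N07Rik, where 273 of all 1529 members (17.85%) were. Nothing is read from this overlap.

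The median log2 change in RNA was 0.37 over the 1021 and 0.08 over all genes tested. It was 0.38 over the silent bivalent genes and 0.30 over the silent genes with neither mark, so the shift is not particular to this class. The rule chose low RNA in the control libraries, so a rise is the direction it favours. With each library centred on its median the change was 0.22 over the 1021 and -0.06 over all genes, which left 8 calls. With no filter on low RNA 4 members were called, and 1 of the 26 was among them. Leaving out 1 library gave 35 calls without control replicate 1, 54 without control replicate 2, 149 without knockout replicate 1 and 127 without knockout replicate 2. Of the 30 feeder markers tested, 3 were called higher, with a median of 0.31, and of the 19 germ cell markers 3 were, with a median of 0.14. Fewer cells of a type and less RNA per cell cannot be told apart in these bulk samples, and the part of the feeder cells in the changes was not tested.

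The 8 largest RNA rises lay at genes of varied roles, all at low levels. Of these 8, Ccdc105, Pyroxd2, Drd1a, AI429214 and Zmynd10 had a control mean under -3 log2 RPM, passed the filter only through the knockout libraries and had to differ, so no p-value is given for them. With no filter AI836003 was the 1 gene of the 8 still called. Sstr2, a somatostatin receptor gene, had 0.83 and 0.949 RPM in knockout and 0.13 and 0.18 RPM in control (log2 change 2.54, SE 0.39, limma adjusted p = 0.0217). The dopamine receptor gene Drd1a had 0.481 and 0.5 RPM in knockout and 0.104 and 0.0676 RPM in control. AI836003 (Ccdc184), a coiled-coil protein gene, had 1.79 and 1.77 RPM in knockout and 0.416 and 0.27 RPM in control (2.41, SE 0.31, limma adjusted p = 0.0148). At Sstr2 and AI836003 both knockout libraries lay above both control libraries. Groups did not overlap at 51.3% of all 17496 genes tested, and both genes were picked as large called rises, so this is not counted. At Drd1a the filter favoured such a separation as well.

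Ccdc105, also a coiled-coil protein gene, had the largest fitted change (3.46), with 0.655 and 0.325 RPM in knockout and 0.026 and 0.0676 RPM in control. Zmynd10, needed to assemble the dynein arms of motile cilia, had 0.481 and 0.575 RPM in knockout and 0.104 and 0.135 RPM in control. Arhgef19, a guanine nucleotide exchange factor gene, had 1.14 and 1.95 RPM in knockout and 0.208 and 0.496 RPM in control. The fitted log2 changes of the oxidoreductase gene Pyroxd2 and of AI429214 were 2.63 and 2.30. Of these 8 genes, H3K4me3 was called lower at Ccdc105 (log2 change -1.45) and Sstr2 (-1.19), neither of them without knockout replicate 1.

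**Figure D5:**
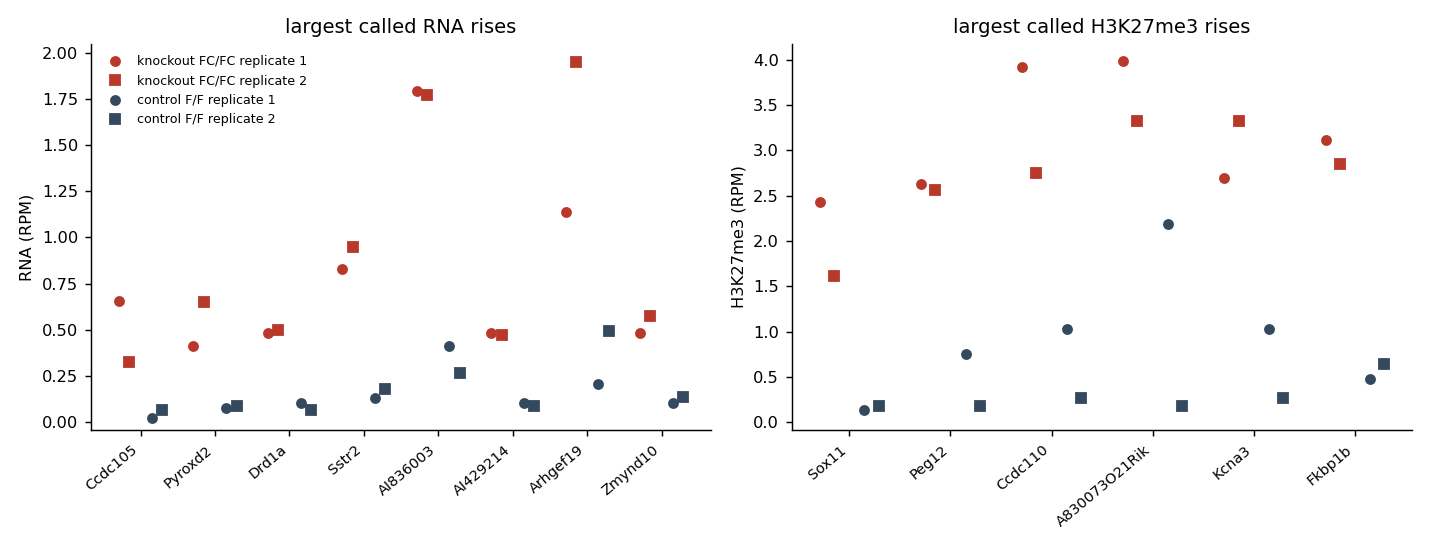
RNA in RPM at the 8 genes and H3K27me3 in RPM at the 6 genes with the largest fitted rises among the calls, in each library, knockout left of control. Most of them passed the filters on low values only through the knockout libraries. RNA of Sstr2 is 0.83 and 0.949 RPM in knockout, above its control values of 0.13 and 0.18 RPM.

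Lists of genes by function were set beside the class, which held 13.7% of all silent genes. It held 11.9% of the silent spermatid and sperm genes and 15.7% of the silent embryonic transcription factor genes. The share was 18.8% for Hox genes, 10.3% for signalling ligands and 17.9% for neurotransmitter receptors. For ion channels it was 31.2% and for interferon and immune genes 29.4%, on 5 members each. None of these differences was tested. Of 40 meiotic prophase genes, 39 were expressed in control, and Ccna1, the cyclin A of male meiosis, was the 1 silent gene and had H3K4me3 only. H3K4me3 at Ccna1 was 5.48 and 11.3 RPM in knockout and 15 and 22.1 RPM in control (log2 change -1.21, SE 0.38, limma adjusted p = 0.0286), and the call was lost without knockout replicate 1 (-0.69). Of 63 spermatid and sperm genes, 42 were silent and 5 of these had H3K4me3 only, against 33 with neither mark. The 5 were Tssk6 and Tssk3, kinase genes of spermatids, Adam3, a sperm membrane protein gene, Tnp1, which replaces histones in spermatids, and Tekt4 of the flagellum. Of the 5, Adam3 was called lower in H3K4me3, with 1.57 and 3.74 RPM in knockout and 7.53 and 8.15 RPM in control, and its call too was lost without knockout replicate 1 (-1.07).

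The oocyte growth factor gene Gdf9 was the 1 member among 28 oocyte genes. It starts 192 bases from the expressed Uqcrq, and its H3K4me3 was 10.7 and 18 RPM in knockout and 11.2 and 14.6 RPM in control, with overlapping groups. All 27 genes of the list of germline genes silenced by DNA methylation in other cells were expressed, so none could belong to the class.

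Among developmental regulators that were silent, most were bivalent and a minority had H3K4me3 only, while 34 of 104 embryonic transcription factor genes and 12 of 28 Hox genes were expressed. Of 70 silent embryonic transcription factor genes, 48 were bivalent and 11 had H3K4me3 only, and of 16 silent Hox genes 10 were bivalent and 3 had H3K4me3 only. All 3 Hox genes met the H3K27me3 limit in control replicate 1 and missed it in replicate 2. Hoxd8, for example, had 2.81 and 2.01 RPM of H3K27me3 in control against inputs of 0.182 and 0.764 RPM. Snai2 and Sox9, among the 11, also met the limit in control replicate 1. The 11 had log2 changes in H3K4me3 from -1.68 to -0.57, and in H3K27me3 from 0.64 to 1.64 with no call. The 1 call in H3K4me3 was at Atoh1, a transcription factor gene of sensory hair cells, with 3.13 and 7.36 RPM in knockout and 13.6 and 17.3 RPM in control (limma adjusted p = 0.00947). Snai2, a factor of epithelial to mesenchymal transition, had 10.7 and 16.2 RPM of H3K4me3 in knockout and 20.3 and 24.2 RPM in control. Dlx2, a forebrain homeobox gene, had 8.09 and 14.7 RPM in knockout and 15.8 and 24 RPM in control, and Sox9 of cartilage and Sertoli cells 7.83 and 17.2 RPM in knockout and 17.4 and 21.2 RPM in control. At all 3 the groups did not overlap, and none was called. Groups also did not overlap at 51.8% of all windows and at 87.95% of the members without an expressed start nearby, so nothing is read from this. The Hox genes Hoxd1, Hoxd8 and Hoxc13 had changes from -0.87 to -0.48, none called.

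Of 39 silent signalling ligand genes, 23 were bivalent and 4 had H3K4me3 only, namely Fgf18, Wnt16, Bmp4 and Wnt8a. Wnt16 was called lower in H3K4me3, with 3.92 and 8.5 RPM in knockout and 12.5 and 16.5 RPM in control (log2 change -1.31, SE 0.43, limma adjusted p = 0.0352; -0.75 and not called without knockout replicate 1). Bmp4, a ligand of the bone morphogenetic protein pathway, was called higher in RNA, with 1.4 and 1.57 RPM in knockout and 0.494 and 0.654 RPM in control, and the call was lost without control replicate 1 and with no filter on low RNA. Its H3K4me3 was 4.7 and 5.55 RPM in knockout and 8.49 and 8.93 RPM in control and was not called (limma adjusted p = 0.345).

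Ion channels and neurotransmitter receptors set up the signals of excitable cells. Of 16 silent ion channel genes, 5 had H3K4me3 only, and 2 of the 5 were called lower in H3K4me3, beside 273 of all 1529 members and 9.9% of all windows. One was Cacna1g, a calcium channel gene, with 5.74 and 14.5 RPM in knockout and 20.3 and 22.1 RPM in control (-0.54 and not called without knockout replicate 1). The other was Kcna4, a potassium channel gene, with 2.87 and 5.73 RPM in knockout and 13.5 and 15 RPM in control (log2 change -1.81, limma adjusted p = 0.00814; -1.31 and still called without knockout replicate 1). Trpc4, a cation channel gene, was called higher in RNA, with 2.23 and 2.17 RPM in knockout and 0.884 and 0.789 RPM in control (1.40, SE 0.22, limma adjusted p = 0.022; not called with no filter on low RNA).

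Of 28 silent neurotransmitter receptor genes, 5 had H3K4me3 only. Of these 5, 3 were called lower in H3K4me3, beside 273 of all 1529 members and 9.9% of all windows. They were Cnr1, the nicotinic receptor gene Chrna7 and the serotonin receptor gene Htr7. Chrna7 had 6.01 and 12.1 RPM in knockout and 17.9 and 18.5 RPM in control, and Htr7 5.22 and 8.93 RPM in knockout and 13.9 and 18.2 RPM in control. None of the 3 calls held without knockout replicate 1. RNA of Cnr1, Chrna7 and Htr7 was not called.

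Of 17 silent interferon and immune genes, 5 had H3K4me3 only, 12 had neither mark and none was bivalent. Ifit2, an interferon-induced gene, had 6.01 and 6.03 RPM of H3K4me3 in knockout and 13.1 and 12.2 RPM in control, with groups far apart but no call (log2 change -1.07, SE 0.44, limma adjusted p = 0.0939). The double-stranded RNA sensor gene Tlr3 had 3.39 and 5.49 RPM in knockout and 8.59 and 12.1 RPM in control, and the class II antigen presentation gene H2-Ab1 2.35 and 5.07 RPM in knockout and 6.27 and 8.82 RPM in control. None of the 5 was called in H3K4me3, H3K27me3 or RNA. Of the feeder markers, Twist2 and Acta2 belonged to the class, and which cells their reads came from was not tested. None of the 15 blood and macrophage markers did, and of 19 Sertoli and Leydig markers Sox9 did.

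H3K9me3, a mark of heterochromatin that was not used to choose the genes, was rarely above its input. Over the 1529 genes the median was 0.073 and 0.0592 RPM in the 2 H3K9me3 libraries and 0.425 and 0.449 RPM in their 2 inputs. A mean of at least 0.25 RPM was reached by 870, and 5 of these were called above input, or 0.575%, where 8.02% of all 15233 windows tested were (limma, adjusted p under 0.05). Below input were 808, or 92.9%, where 78% of all windows were. Only 37 of the 870 reached 0.25 RPM on the H3K9me3 libraries alone, and the others passed through their inputs and had to lie below them. With no filter 7 of the 1529 were called above input and 1418 below. The share above input was 20.9% among the silent genes with neither mark and 0.172% among the expressed genes with H3K4me3 only. Gene windows took 0.4% of the reads in the H3K9me3 libraries and 1% and 1.1% in their inputs. With each library centred on its median, 35 were above and 22 below, so that the count below input rests on the filter and on the scaling.

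The long noncoding RNA 3110070M22Rik had 5.4 and 5.69 RPM of H3K9me3 against 1.31 and 1.16 RPM of input, the largest difference (log2 2.17, limma adjusted p = 0.00217), and starts 442 bases from the expressed Gm7120. E230019M04Rik on chromosome X, 167 bases from the expressed Nup62cl, had 0.584 and 0.572 RPM against 0.189 and 0.189 RPM of input. Both calls held when any 1 library was left out. Zfp575, a zinc finger gene, had 0.73 and 1.09 RPM against 0.519 and 0.331 RPM of input, CU463325.1 0.608 and 0.513 RPM against 0.315 and 0.26 RPM, and Ccdc110 0.9 and 0.612 RPM against 0.456 and 0.355 RPM. Each of these 3 lost its call without the input library numbered 4, among others. Ccdc110 was the 1 gene called above input in H3K9me3 (limma adjusted p = 0.0494), higher in H3K27me3 and lower in H3K4me3. Its H3K4me3 was 0.522 and 0.784 RPM in knockout and 3.67 and 4.21 RPM in control. It passed the H3K27me3 filter only through the knockout libraries, so no support is drawn from the 3 calls together.

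The limits that define the class cut through a continuum. Just inside the H3K4me3 limit, 1700019N19Rik had 2.8 and 2.88 RPM and Slco6b1 2.22 and 2.72 RPM in control, and just outside Krtap26-1 had 3.47 and 4.16 RPM and Csrnp3 2.7 and 3.88 RPM. Just under the RNA limit, Cd1d1 had 0.884 and 1.13 RPM and Gpx7 0.832 and 1.19 RPM, and just over it Gm15952 had 1.17 and 0.856 RPM. Within 0.1 of the H3K4me3 limit lay 25 of the genes, and 260 had a control RNA mean from -0.5 to 0 log2 RPM.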

How the data were processed

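Per the labels' protocols, ChIP-seq libraries were made with NEBNext kits (H3K9me3 and its inputs with ThruPLEX) and RNA-seq libraries with a directional NEBNext kit. The authors deposited log2 RPM, 1 window per gene in 16 chromatin libraries and 1 value per gene in 4 RNA libraries. Window size and RNA strand setting are not given in the sources used here. The build was mm10, and the submitters' processing notes list, without roles, TopHat2 2.0.14, CASAVA 1.8, Bowtie 1.1.1 and Trim Galore 0.4.0. Within each library, 100% of values were whole multiples of 1 read within 0.1, which gave depth: 3830045 to 18035122 mapped reads for H3K4me3, 10538531 to 14810135 for H3K27me3, 10967790 to 14405261 for inputs, 41099186 to 63537169 for H3K9me3 and its inputs, and 38458010 to 45771857 for RNA. Overlapping genes share reads and are uncertain.

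Knockout and control were compared for each measure with limma 3.58.1 (R 4.3.3, mean-variance trend, two-sided, Benjamini-Hochberg over all features, call at adjusted p under 0.05), with low features left out (windows averaging under 1 RPM, or under 0.25 RPM for H3K9me3 against its inputs, and genes averaging under -3 log2 RPM of RNA). The scripts were tested on simulated data. A gene was expressed at a control mean of at least 0 log2 RPM. The members and lists were chosen with earlier results of these data known. Named genes are the 8 largest called H3K4me3 decreases with at least 10 control reads and no expressed start within 1000 bases, the highest control H3K4me3 (8 without, 4 with such a start), the largest called rises (6 in H3K27me3, 8 in RNA), the called H3K9me3, up to 3 per list and the genes nearest the limits, some of which are not reported here. Wnt8a, Tnp1, Tekt4, Kcna4, Atoh1, Slc6a15, Rln1, 4930403N07Rik and the genes of the closing section were named after their values were seen. Alternatives were scaling, filters, offsets, limma voom, a replicate block, single libraries left out, input subtraction and other limits for membership.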

Additional observations from a re-analysis of the deposited data

How the results depend on the processing

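Calls of lower H3K4me3 (273) came to 82 with quantile normalization (22 called higher), 177 without a filter, 514 with limma voom, 64 after subtracting input, 152 with an RNA limit of -2, and 0 to 1035 with 1 library left out. Membership set in the knockout libraries gave 31 of 763 genes, and in both genotypes 30 of 730. The median H3K4me3 change of -0.82 moved to -0.13, -0.43 and -0.43 with quantile normalization and these 2 memberships. For members without an expressed start nearby it moved to -0.20 with quantile normalization. For those with one it turned to 0.0195 with quantile normalization, 0.0863 with median centring and 0.0219 without knockout replicate 1, settings added after seeing the data, and with 1 library left out it ran from -0.432 to 0.0219. Calls of higher H3K27me3 (13) came to 29 with median centring (1 lower), 2 with quantile normalization, 26 with a filter of 0.5 RPM, 0 after subtracting input, 1 for either of the 2 memberships, 5 with the RNA limit of -2 and 0 to 47 with 1 library left out. Calls of higher RNA (26) came to 8 with median centring, 1 with quantile normalization, 7 with a filter at 0 log2 RPM, 4 without a filter (of which 1 was among the 26), 3 with membership set in the knockout and 35 to 149 with 1 library left out. Calls of lower RNA (0) came to 2 without a filter and 0 to 11 with 1 library left out. Calls above input in H3K9me3 (5) came to 1 with a filter of 0.5 RPM, which left 7 members, 35 with median centring and 2 to 10 with 1 library left out. Other memberships and stricter filters hold fewer genes by construction, and otherwise the cause was not tested. Where 1 library was left out, the lone sample was assumed to vary like the other group. Among the named genes, 320 values under other settings kept their call and 172 lost it, none with a change of sign. The promoter comparison, with both window lengths, was void because 44.3% of members had an entry, and its values are not given.

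With the replicate number as a replicate block, calls came to 757 for lower H3K4me3, 284 for higher H3K27me3, 113 for higher and 3 for lower RNA. The labels do not say that a number marks a cell line, and there are only 2 numbers. Same-numbered libraries deviated together at r = 0.149 in H3K4me3, 0.0617 in H3K27me3 and 0.0272 in RNA.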

Other observations

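Of the 16 silent histone genes, 12 (75%) had H3K4me3 only, beside 13.7% of all silent genes, and none was bivalent. The other 64 of 80 histone genes were expressed. Silent here means a low RNA value only, and how fully these libraries capture histone transcripts was not tested. The log2 changes of the 12 in H3K4me3 ran from -1.28 to 0.07, with a median of -0.37 and no call by limma, where 17.85% of all members were called lower. Hist2h4 had 10.2 and 15 RPM in knockout and 15.8 and 22.2 RPM in control, and Hist1h1b, a linker histone gene, 9.92 and 13.5 RPM in knockout and 11.5 and 13.4 RPM in control. The testis linker histone gene Hist1h1t had 4.18 and 5.73 RPM in knockout and 6.27 and 11.2 RPM in control.

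Of 11 silent Rab genes, small GTPases of vesicle traffic, 8 (72.7%) had H3K4me3 only, beside 13.7% of all silent genes. Their changes ran from -1.24 to -0.23 with no call, where 17.85% of all members were called lower. Rab38, of melanosome traffic, had 5.48 and 10.1 RPM in knockout and 13.2 and 16 RPM in control. Of 34 silent genes named for coiled coils 15 belonged, or 44.1%, beside 13.7% of all silent genes. Of 1096 silent olfactory receptor genes 3 did. The families were picked after their values were seen, and others not described here also had a high share, such as Zfp genes (42.4%) and Tmem genes (30.8%). Noggin (Nog), a secreted antagonist of bone morphogenetic proteins, had 7.05 and 13.4 RPM of H3K4me3 in knockout and 22.9 and 21.5 RPM in control, and starts 164 bases from Gm2018, which was also called lower. The Nodal co-receptor gene Tdgf1 was called both lower in H3K4me3, with 3.13 and 3.02 RPM in knockout and 8.11 and 11.6 RPM in control, and higher in RNA, with 0.743 and 0.65 RPM in knockout and 0.182 and 0.203 RPM in control. Other genes called higher in RNA, picked here after their values were seen, included the homeobox gene Meis2 (log2 change 1.43), the death receptor gene Fas (1.28), the muscle transcription factor gene Msc (1.27) and the interferon-induced genes Rtp4 (1.5) and Ube2l6 (1.54).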
